A study of Mus musculus with 12 samples.

Results

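The ribosomal protein genes of mouse liver were followed in 12 RNA-seq libraries. The set held the protein-coding genes of the count table whose symbol was a prefix and a number, with no more than a letter after it. The prefix was Rpl or Rps (cytosolic ribosome) or Mrpl or Mrps (mitochondrial ribosome). Rplp0, Rplp1, Rplp2 and Rpsa were added, and the Rps6k kinases were left out. This gave 158 of 55357 genes, 80 cytosolic and 78 mitochondrial, and 154 of them (77 and 77) had enough counts to be tested.

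WT mice carried floxed PPARα alleles without Cre (PPARafl/fl AlbuminCre+/+), and PPARα KO mice carried the same floxed alleles with an Albumin-driven Cre, which acts in hepatocytes and leaves PPARα in the other liver cells (PPARafl/fl AlbuminCreTg/+). All were C57BL/6J males, 7 weeks old at the start and 13 weeks old at sacrifice, and received chow or CDAHFD, a high-fat diet deficient in choline with defined amino acids, for 6 weeks. There were 4 WT chow, 3 WT CDAHFD, 2 KO chow and 3 KO CDAHFD libraries, while the methods of the study state 3 mice per group. Libraries were poly-A selected and did not keep the strand.

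A ribosome is made of a large and a small subunit, each a core of ribosomal RNA dressed with proteins. The cytosolic ribosome translates the mRNAs of the nucleus, and its proteins are encoded by highly expressed genes whose mRNAs commonly begin with a run of pyrimidines (C or T), the element through which mTOR signalling controls their translation. The mitochondrial ribosome makes only the few respiratory chain subunits encoded in mitochondrial DNA. All its proteins come from nuclear genes, are made in the cytosol and are imported, and liver, rich in mitochondria, depends on it for oxidative metabolism.

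Total counts ran from 29906785 to 43551003 per library. Ppara, the deleted gene, was at 96.2 to 238 CPM (read counts scaled to libraries of one size, here with TMM factors) in WT chow, against 14.4 and 38.7 for the KO chow libraries. Under CDAHFD it was at 59.5 to 75.5 CPM in WT mice and 20.7 to 51.9 in KO mice, so that KO and WT libraries did not overlap within a diet. All 10 hepatocyte markers were detected in every library, and their summed level was 119646 to 129663 CPM in WT chow. It was 98871 to 109423 CPM in KO chow, and under CDAHFD 66850 to 77614 (WT) and 60846 to 78493 (KO). In the order WT chow, KO chow, WT CDAHFD, KO CDAHFD, the 15 leukocyte markers summed to 139 to 285, 656 to 705, 1237 to 1732 and 1272 to 1353 CPM, the 10 stellate cell markers to 246 to 369, 1400 to 1597, 1689 to 1802 and 1833 to 2517 CPM, and the 7 cholangiocyte markers, at most 1 of them at 0 in a library, to 46.5 to 79.9, 167 to 291, 362 to 583 and 577 to 893 CPM. Most of the cholangiocyte sum in each library was Spp1 alone, at 39.2 to 59.0, 140 to 251, 314 to 525 and 500 to 797 CPM in the same order. The 9 endothelial markers lay between 218 and 396 CPM. The 12 mitosis genes rose from 46.6 to 54.4 CPM in WT chow to 159 to 372 elsewhere, with all 12 called in each group. Of 15 clock genes 2 were lower in each group, which is below the share of all genes called lower. The part of this shift in the results below was not tested, and in bulk samples fewer cells of a type and less RNA per cell cannot be told apart.

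Cytosolic ribosomal protein genes took a larger share of the library in every group other than WT chow, whereas the share of the mitochondrial set overlapped WT chow under CDAHFD. A share of the total count is itself a scaling by library size, under which the typical gene rose too. Against WT chow the all-gene median log2 fold change was then 0.40, 0.51 and 0.57 (KO chow, WT CDAHFD, KO CDAHFD). The cytosolic median was 0.55, 0.29 and 0.55 in the same order. It exceeded the all-gene value for KO chow only, was close to it for KO CDAHFD and lower for WT CDAHFD. The cytosolic genes took 1.43%, 1.57%, 1.30% and 1.30% of the counts in the 4 WT chow libraries. They took 2.31% and 1.80% in KO chow. Under CDAHFD they took 1.79%, 1.66% and 1.73% in WT mice and 2.02%, 2.23% and 1.91% in KO mice, each above the highest WT chow library. The mitochondrial genes took 0.237%, 0.234%, 0.213% and 0.204% in WT chow, and 0.292% and 0.245% in KO chow. In WT CDAHFD 2 of their 3 shares (0.233%, 0.223% and 0.238%) lay in the WT chow range, and in KO CDAHFD 1 did (0.253%, 0.272% and 0.232%).

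The ratio of the summed counts separated WT chow from the rest more clearly than either share. On the log2 scale the cytosolic over mitochondrial ratio was 2.60, 2.74, 2.62 and 2.67 in WT chow (mean 2.66 ± 0.07 SD, n = 4). It was 2.98 and 2.88 in KO chow (2.93 ± 0.07, n = 2). Under CDAHFD it was 2.94, 2.90 and 2.86 in WT (2.90 ± 0.04, n = 3) and 2.998, 3.04 and 3.04 in KO mice (3.03 ± 0.02, n = 3). None of the 8 other libraries reached down to the highest WT chow library, and the KO CDAHFD libraries lay above those of WT CDAHFD and KO chow. No test was made on these sums, since the members were chosen with earlier results in view.

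**Figure D1:**
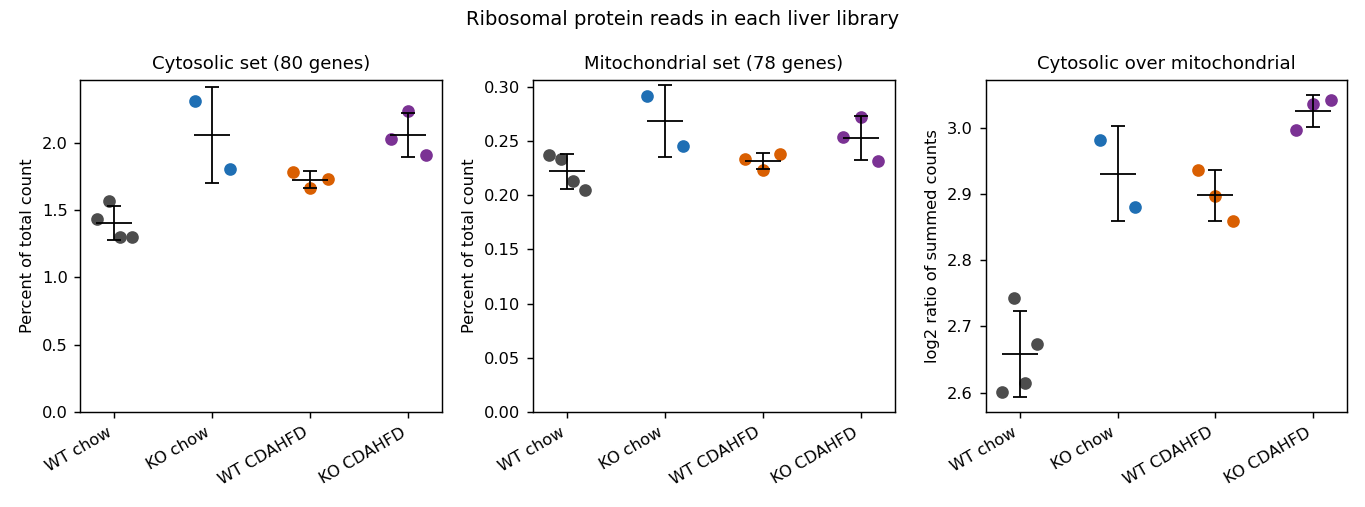
Share of the total count (percent) on cytosolic and mitochondrial ribosomal protein genes and the log2 ratio of their summed counts, by group. Points are libraries, and the bar and whiskers are the mean ± SD (n = 4, 2, 3 and 3). The ratio is 2.60 to 2.74 in WT chow and 2.86 or more in each other library. Scaled by library size alone, the median of all genes tested is also above WT chow in each other group.

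Fold changes of single genes depend on the scaling, and the direction of whole sets turned with it. TMM scaling sets the bulk of genes to no change, whereas scaling by library size alone put the median over all 17358 tested genes, against WT chow, at 0.40 for KO chow, 0.51 for WT CDAHFD and 0.57 for KO CDAHFD on the log2 scale (under TMM 0.00, -0.05 and -0.04). Relative to that median, both scalings give nearly the same values by construction, since a scaling factor shifts all genes of a library alike. In KO chow the cytosolic median was above it by 0.14 under TMM and 0.14 by library size. It was below it in WT mice on CDAHFD (-0.22 and -0.22) and near it in KO mice on CDAHFD (-0.01 and -0.02). The mitochondrial median was below it in each group, by both scalings at -0.06 in KO chow, and at -0.41 and -0.40 (WT) and -0.33 and -0.34 (KO) under CDAHFD. The KO chow value rests on single libraries: the mitochondrial median log2 fold change, -0.06 under TMM, was -0.22 without KO chow replicate 1 and 0.048, above 0, without KO chow replicate 2.

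The distance between the sets cannot depend much on the scaling, since a scaling factor shifts all genes of a library alike. The cytosolic median log2 fold change exceeded the mitochondrial one by 0.20 under TMM and 0.21 by library size in KO chow. Under CDAHFD the distances were 0.19 and 0.18 in WT mice and 0.32 and 0.32 in KO mice. With each library left out in turn these 3 distances ran from 0.19 to 0.29, from 0.15 to 0.22 and from 0.29 to 0.36. The 3 comparisons share the WT chow libraries and are not independent of each other.

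**Figure D2:**
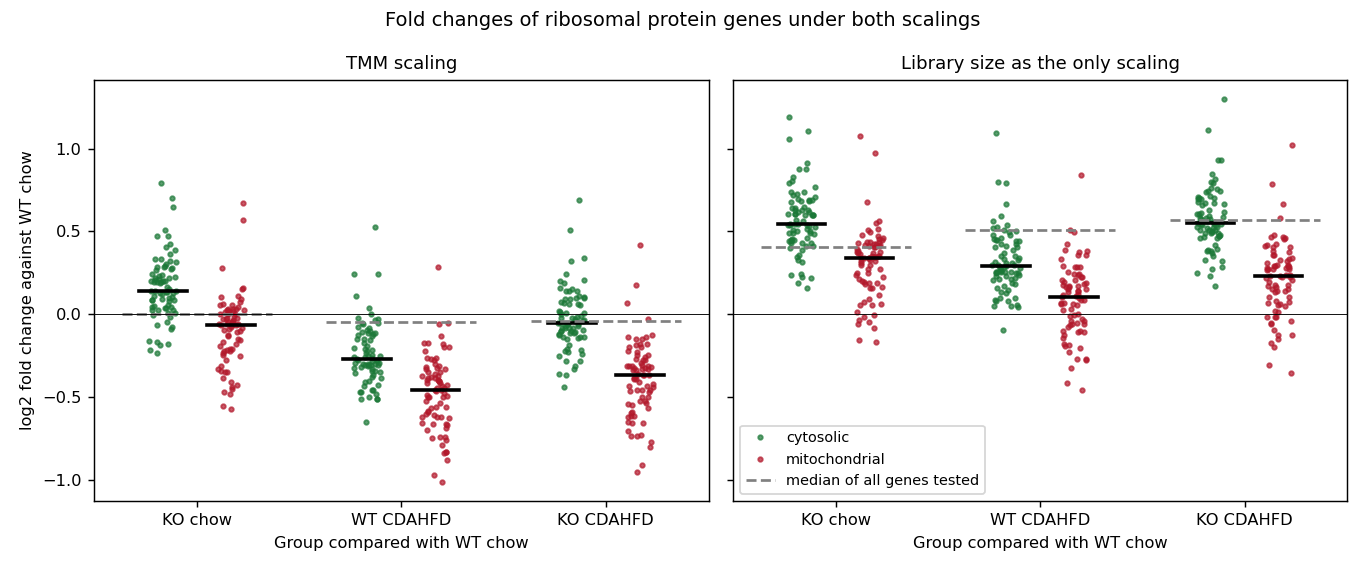
log2 fold changes against WT chow of the 77 cytosolic and 77 mitochondrial genes tested, under TMM scaling and with library size as the only scaling. Points are genes, black bars the medians and dashed lines the median of all genes tested. The mitochondrial median under CDAHFD is below 0 under TMM and above 0 by library size, and lies below both the dashed line and the cytosolic median under either.

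In WT mice, CDAHFD was accompanied by lower mRNA of most mitochondrial ribosomal protein genes relative to the bulk of genes. Under TMM 60 of the 77 (77.9%) were lower and 0 higher at an adjusted p under 0.05 (edgeR quasi-likelihood test, Benjamini-Hochberg over all genes; the 63 with an unadjusted p under 0.05 include these, and DESeq2 gave 56 lower and 0 higher). Of all genes, 25.0% were called lower and 26.1% higher. The cytosolic set had 22 of 77 lower (28.6%), close to the share over all genes, and 0 higher (1 by DESeq2; 36 had an unadjusted p under 0.05 in either direction). By library size the picture differed, with 11 mitochondrial genes higher and 4 lower and 43 cytosolic genes higher and 0 lower, against 52.4% higher and 6.74% lower of all genes.

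The cytosolic count in WT CDAHFD was the less steady of the pair. It was 12 without WT chow replicate 2 and 14, 6 and 13 without WT CDAHFD replicate 1, 2 and 3. With a score of clock genes as a covariate it was 44: WT chow replicates 1 and 2 had scores of 6.59 and 5.84 and replicates 3 and 4 of -7.53 and -7.39, so the WT chow libraries differed in clock gene expression. The mitochondrial count moved by less than 1.5 times in each of these fits.

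In KO mice on CDAHFD the mitochondrial set again stood lower and the cytosolic set did not. Under TMM 46 of 77 mitochondrial genes (59.7%) were lower and 1 higher than in WT chow, beside 25.4% lower and 26.9% higher of all genes. The cytosolic set had 3 lower and 2 higher (2 and 3 by DESeq2). By library size 27 mitochondrial genes were higher and 1 lower and 72 cytosolic genes higher and 0 lower, beside 56.3% higher and 6.31% lower of all genes. KO CDAHFD replicate 3 had a clock gene score of -8.26, apart from 1.77 and 1.64 in replicates 1 and 2, and with the score as a covariate 4 cytosolic genes were higher and 5 lower. The small cytosolic counts moved with single libraries: the 3 lower became 1 without KO CDAHFD replicate 1 or 3 and 6 without replicate 2, and the 2 higher became 1 without KO CDAHFD replicate 1 or 2 and 4 without KO CDAHFD replicate 3 or KO chow replicate 1.

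PPARα loss on chow gave few calls in either set. Under TMM 5 of 77 cytosolic genes were higher and 0 lower (14 had an unadjusted p under 0.05; DESeq2 gave 9 and 0), and 2 mitochondrial genes were higher and 9 lower, while 22.0% of all genes were called higher and 17.0% lower. By library size 69 cytosolic and 32 mitochondrial genes were higher and 0 in either set lower, beside 40.5% and 6.62% of all genes. The 2 KO chow libraries differed, also in their clock gene score (4.94 and -3.88). With the score as a covariate 8 cytosolic genes were higher and 15 mitochondrial genes lower. Without replicate 1 the cytosolic median log2 fold change was -0.01 and 0 genes were higher, and without replicate 2 it was 0.34 and 14 were higher, as also without WT chow replicate 2. The 9 lower mitochondrial genes became 2 without KO chow replicate 2, 4 without KO chow replicate 1, and 5 without WT chow replicate 2, WT CDAHFD replicate 1 or 3, or KO CDAHFD replicate 1. The 2 higher ones became 1 without WT chow replicate 3 and 0 without KO chow replicate 1.

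The medians of the large and small subunits were close to each other. In WT CDAHFD the median log2 fold change under TMM was -0.27 for 46 large-subunit and -0.23 for 31 small-subunit genes of the cytosolic ribosome, and -0.44 (48 genes) and -0.47 (29 genes) for the mitochondrial one. In KO CDAHFD the cytosolic values were -0.06 and -0.03 and the mitochondrial ones -0.38 and -0.36. The 5 cytosolic calls there were all in the small subunit. By library size the same subunit medians were above 0, at 0.28, 0.33, 0.12 and 0.08 in WT CDAHFD and 0.54, 0.57, 0.23 and 0.23 in KO CDAHFD.

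Among mitochondrial members, 4 were lower in WT CDAHFD under both scalings: Mrps31, Mrps10, Mrpl34 and Mrpl49. Mrps31, a small-subunit protein (GRCm38 chromosome 8, 22411361 to 22429665), stood at 45.6, 49.3, 36.7 and 43.9 CPM in WT mice on chow and at 23.4, 19.9 and 22.1 in WT CDAHFD. It was at 23.4, 24.4 and 22.2 in KO CDAHFD and at 39.4 and 35.8 in KO chow. All 6 CDAHFD libraries lay below all chow libraries, and the KO chow libraries were near the lowest WT chow one. The log2 fold change under TMM was -1.01 ± 0.11 (SE) for WT CDAHFD and -0.91 ± 0.11 for KO CDAHFD (edgeR adjusted p = 1.13e-05 and 2.47e-05), and by library size -0.45 and -0.30 (edgeR adjusted p = 0.00432 and 0.0336). Within KO mice the log2 difference between CDAHFD and chow was -0.69 ± 0.13 (edgeR adjusted p = 0.0112, or 0.0456 by library size), a call lost without KO chow replicate 1 (-0.60, adjusted p = 0.108).

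Mrpl34, a small large-subunit protein (chromosome 8, 71464959 to 71465747), was at 51.0, 41.7, 39.1 and 39.1 CPM in WT chow, with 36.0 and 25.1 in KO chow. Under CDAHFD it was at 21.6, 20.8 and 23.1 CPM in WT mice and 23.3, 25.0 and 18.01 in KO mice. In TMM-scaled CPM every library outside WT chow was below the WT chow range. The TMM log2 fold changes were -0.97 ± 0.15 for WT CDAHFD, -0.95 ± 0.15 for KO CDAHFD and -0.48 ± 0.17 for KO chow (edgeR adjusted p = 0.000207, 0.000223 and 0.0433). By library size only the first passed (-0.42, edgeR adjusted p = 0.0385), and the KO chow call was lost in 7 of the 12 fits with a library removed (adjusted p from 0.0562 to 0.388, the last without KO chow replicate 2, where the value was -0.24).

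Mrps10, of the small-subunit head (chromosome 17, 47368887 to 47381417), was at 38.7, 44.3, 42.0 and 43.9 CPM in WT chow. Both KO chow libraries (30.4 and 30.6 CPM) were lower. It was at 24.2, 19.5 and 25.0 in WT CDAHFD and 23.8, 29.2 and 19.8 in KO CDAHFD. In TMM-scaled CPM the groups other than WT chow lay below it without overlap. Their log2 fold changes were -0.88 ± 0.13, -0.80 ± 0.13 and -0.47 ± 0.15 in WT CDAHFD, KO CDAHFD and KO chow (edgeR adjusted p = 0.000148, 0.000294 and 0.0277). By library size the first was -0.32 (edgeR adjusted p = 0.026). The KO CDAHFD and KO chow values did not pass by library size, at -0.20 and -0.06 (edgeR adjusted p = 0.146 and 0.719). The KO chow call did not pass without either KO chow library (adjusted p = 0.125 and 0.11).

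Mrpl49, a large-subunit protein (chromosome 19, 6053622 to 6057785), was at 36.5, 36.2, 36.4 and 42.2 CPM in WT chow, with 26.8 and 28.9 in KO chow. On CDAHFD it was at 21.9, 19.1 and 22.4 CPM in WT mice and 23.6, 25.0 and 20.9 in KO mice. The order of the groups was WT chow, KO chow, KO CDAHFD and WT CDAHFD, and the CDAHFD groups overlapped each other. The TMM log2 fold change was -0.84 ± 0.11 in WT CDAHFD (edgeR adjusted p = 3.18e-05, and 0.0172 by library size with -0.28).

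**Figure D3:**
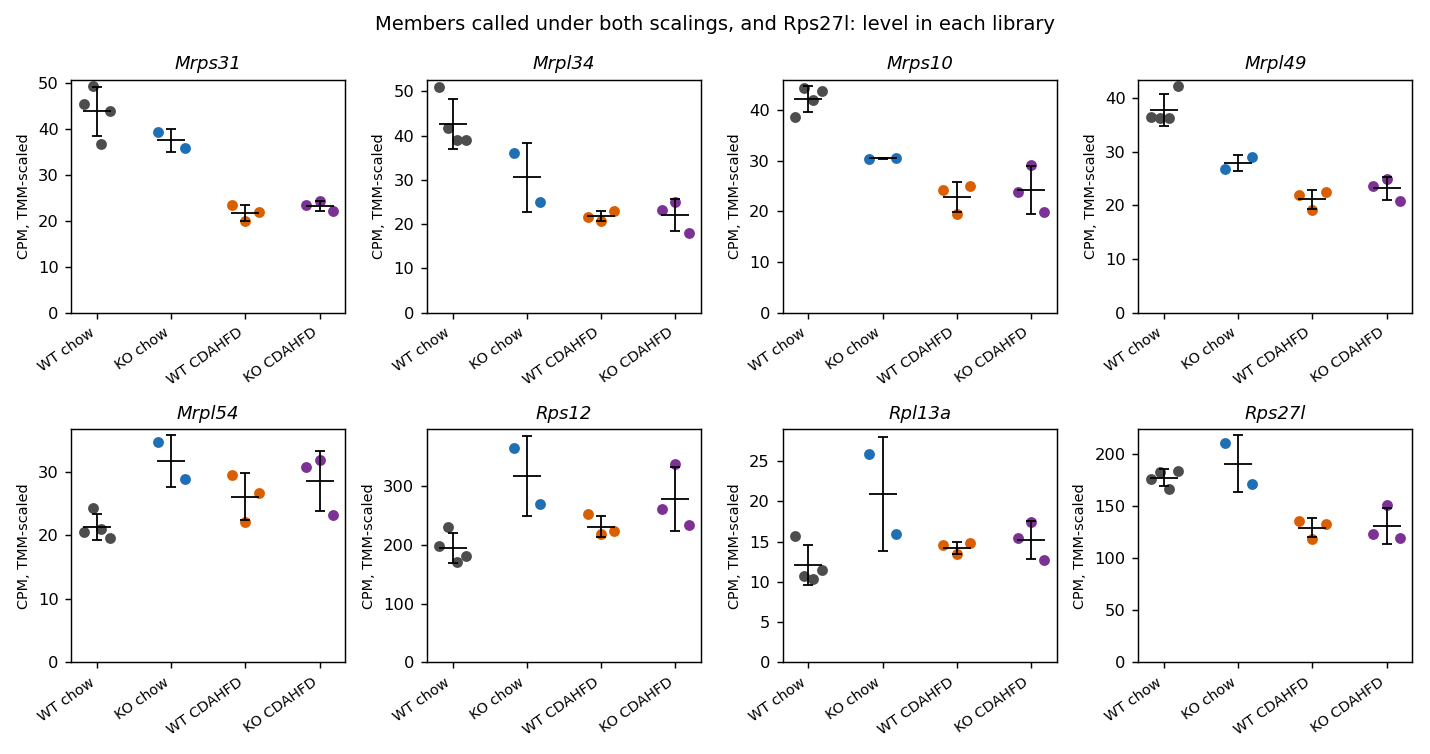
CPM (TMM-scaled) in each library of 7 genes called in the same direction under both scalings and of Rps27l. Points are libraries, bar and whiskers the mean ± SD. Mrps31 is at 19.9 to 24.4 CPM in the CDAHFD libraries and at 35.8 or more on chow, whereas Rps12 is at 171 to 231 CPM in WT chow and 219 or more elsewhere.

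The most expressed mitochondrial members per kilobase of exon in WT chow were Mrpl12 (82.9 CPM per kilobase), whose protein forms the mitochondrial ribosomal stalk that recruits translation factors, Mrpl34 (70.4) and Mrpl14 (60.9). Mrpl12 was at 118 to 135 CPM in WT chow and 77.0 to 104 in the other 8 libraries, with TMM log2 fold changes of -0.60 ± 0.11 (WT CDAHFD) and -0.52 ± 0.11 (KO CDAHFD; edgeR adjusted p = 0.000498 and 0.00126). By library size these were -0.04 and 0.08 and did not pass. Its KO chow value, -0.34 ± 0.12 (edgeR adjusted p = 0.0406), was lost in 8 of the 12 fits without a library and was 0.06 by library size. Mrpl14 and Mrpl4, of the large subunit, were lower in KO chow by TMM as well (-0.57 ± 0.15 and -0.55 ± 0.18, edgeR adjusted p = 0.00862 and 0.03), and neither passed by library size (-0.17 and -0.15). Without KO chow replicate 2 they were -0.37 and -0.45 and not called, and Mrpl4 was not called without KO chow replicate 1 or WT chow replicate 2 either.

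Mrpl54, a large-subunit protein (chromosome 10, 81264713 to 81266934), went the other way. It was at 20.5, 24.2, 21.01 and 19.5 CPM in WT chow, against 34.6 and 28.8 for the KO chow libraries. Under CDAHFD it was at 30.7, 31.8 and 23.1 CPM in KO mice and 29.4, 22.1 and 26.6 in WT mice. Both KO chow libraries were above WT chow, and 1 library of each CDAHFD group lay within its range. It was higher in KO chow by 0.57 ± 0.16 and in KO CDAHFD by 0.42 ± 0.14 (edgeR adjusted p = 0.0118 and 0.0235), and by library size by 0.97 and 1.02 (edgeR adjusted p = 0.000172 and 2.76e-05). The TMM calls were lost without KO chow replicate 1 (0.45) and without KO CDAHFD replicate 1 or 2 (0.37 and 0.34). Mrps6, of the small subunit, was also higher in KO chow (0.67 ± 0.22, edgeR adjusted p = 0.0267), at 12.5 and 7.81 CPM against 5.27 to 7.43 in WT chow. This rested on KO chow replicate 1, without which the value was 0.31 (adjusted p = 0.399), and it did not pass without WT chow replicate 3 (0.60). Of the exon bases of Mrps6, 80.1% lay outside other genes.

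**Figure D4:**
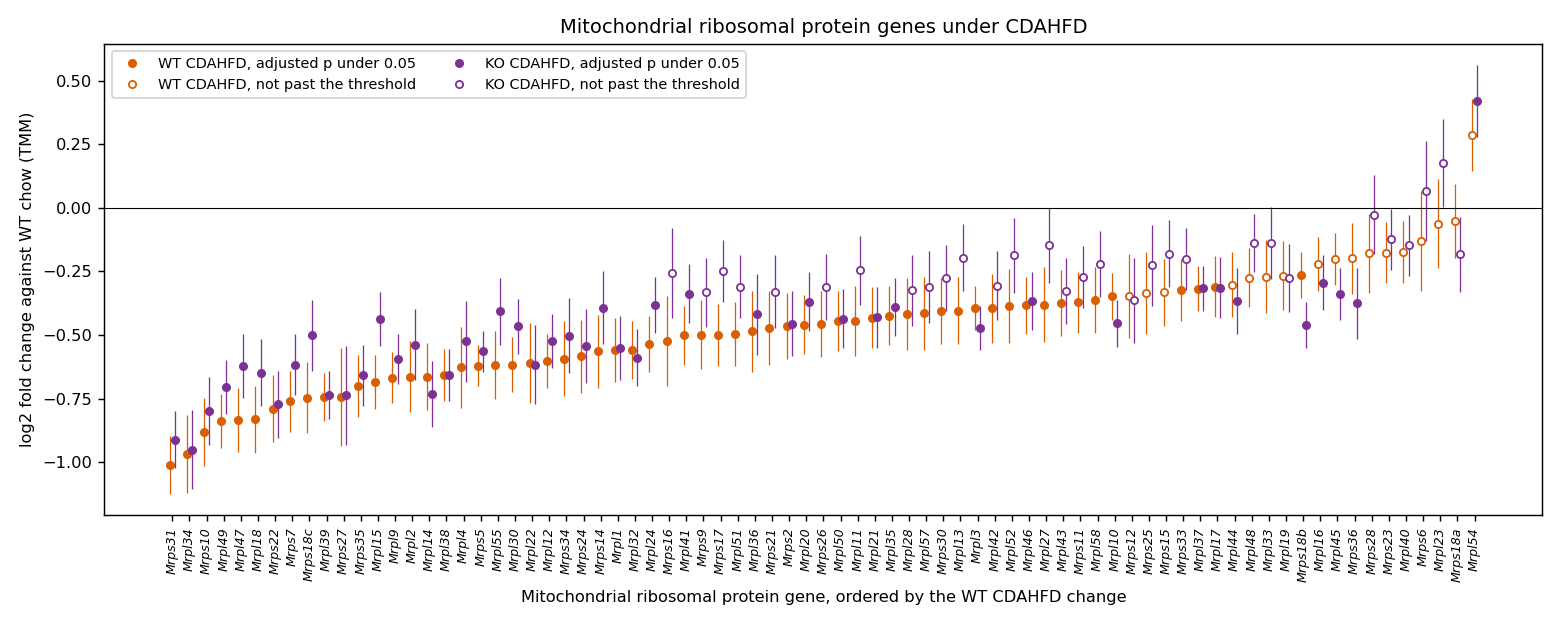
TMM log2 fold change ± SE against WT chow of the 77 mitochondrial ribosomal protein genes tested, for WT CDAHFD and KO CDAHFD, ordered by the WT CDAHFD value. Filled points have an edgeR adjusted p under 0.05 (60 lower in WT CDAHFD, 46 lower and 1 higher in KO CDAHFD). Mrps31 is at -1.01 and -0.91 and Mrpl54 at 0.29 and 0.42. By library size 11 were higher and 4 lower in WT CDAHFD and 27 higher and 1 lower in KO CDAHFD.

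Among cytosolic members, Rps12, a small-subunit protein (chromosome 10, 23785183 to 23787275), was at 198, 231, 171 and 182 CPM in WT mice on chow and at 366 and 270 in KO mice on chow. It was at 262, 339 and 235 in KO CDAHFD and 252, 219 and 224 in WT CDAHFD. Each KO library was above the highest WT chow library, and WT CDAHFD overlapped it. The log2 fold change was 0.70 ± 0.17 in KO chow and 0.51 ± 0.15 in KO CDAHFD (edgeR adjusted p = 0.00581 and 0.0133), and 1.10 and 1.11 by library size (edgeR adjusted p = 0.000135 and 3.14e-05). It did not pass without KO chow replicate 1 (0.48, adjusted p = 0.103) or, for KO CDAHFD, without KO CDAHFD replicate 2 (0.35, adjusted p = 0.0803). Of its exon bases 86.3% were free of other genes, the largest overlap being with the small nucleolar RNA Snora33.

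The other cytosolic genes called higher in KO chow under both scalings were Rpl13a, Rpl12, Rpl41 and Rps15a, of which Rpl41 and Rps15a were singled out after their values were seen. Rpl12, at the base of the ribosomal stalk, was at 310 and 252 CPM against 167 to 241 in WT chow (0.51 ± 0.16, edgeR adjusted p = 0.0214). Rpl13a, a large-subunit protein, was at 25.9 and 15.9 CPM against 10.3 to 15.7 (0.79 ± 0.21, edgeR adjusted p = 0.00899), and 64.6% of its exon bases were outside other genes. Rpl41, the smallest protein of the cytosolic ribosome, was at 450 and 339 CPM against 259 to 308 (0.47 ± 0.15, edgeR adjusted p = 0.0218), and Rps15a at 164 and 122 against 95.8 to 116 (0.47 ± 0.13, edgeR adjusted p = 0.0142). In each, KO chow replicate 1 was the higher library, and without it no cytosolic gene was called higher, with Rpl12 at 0.37 and Rpl13a at 0.42. Rps10, of the small-subunit head, was higher in KO CDAHFD (0.69 ± 0.22, edgeR adjusted p = 0.021) at 3.37, 2.86 and 2.38 CPM against 1.28 to 2.02 in WT chow. It had only 94.3 counts per library on average, 71.3% of its exon bases were free of other genes (mainly of RPS10-NUDT3), and the call was lost without KO CDAHFD replicate 1 (0.56).

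The bases around the annotated start of the mRNA, where the cytosolic genes carry their pyrimidine run, are shown for genes called under both scalings. The starts are those of the RefSeq promoter table (build GRCm38.p6), for the genes with an entry in it. They can differ from the gene coordinates of GENCODE, used elsewhere here. The windows of Mrps31 and Mrpl34 lie wholly before their GENCODE genes. The other windows lie wholly inside theirs, that of Rps10 farthest from the start of its gene. Each window holds 30 bases, 10 before the RefSeq start and 20 from it on, 5′ to 3′ on the gene's own strand, and capitals mark the longest unbroken run of C and T of at least 6 bases.
Rps12 (chr10:23787190-23787219, minus): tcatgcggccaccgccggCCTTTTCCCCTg
Rpl13a (chr7:45128726-45128755, minus): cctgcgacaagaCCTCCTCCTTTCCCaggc
Rps10 (chr17:27635225-27635254, minus): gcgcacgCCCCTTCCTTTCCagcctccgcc
Rps15a (chr7:118116128-118116157, minus): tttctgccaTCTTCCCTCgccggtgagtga
Rpl12 (chr2:32961702-32961731, plus): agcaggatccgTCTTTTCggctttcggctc
Rpl41 (chr10:128549149-128549178, minus): gggccggctcggaagtgacgacaccgagca
Mrpl34 (chr8:71464916-71464945, plus): acaTTTCCCagaaggcattgtcaaggagcc
Mrps10 (chr17:47369187-47369216, plus): CCCTCCacggtagagagggccatggaaacc
Mrps31 (chr8:22411330-22411359, plus): tccaaaaggagcggaacagtgcaggctgga
Mrpl49 (chr19:6057736-6057765, minus): cgcatatgacactcagttgaggcgccaaga
Mrps6 (chr16:92058326-92058355, plus): tcgccgtccgggagctgaccggccgtgttc
The runs of Rpl13a, Rps10, Rps12 and Rps15a have 14, 13, 11 and 9 bases and that of Rpl12 has 7. The window of Rpl41 holds none of 6 or more, nor do those of Mrps31, Mrpl49 and Mrps6. The run of Mrps10 begins at the edge of its window and may extend beyond it. In a wider window, 25 bases on each side of the start, Mrps10 and Mrps6 each hold a run of at least 8.

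Over all members with a promoter entry (60 cytosolic and 69 mitochondrial, 129 of 158), a run of at least 8 pyrimidines within 25 bases of the start was found in 53.3% of the cytosolic and 24.6% of the mitochondrial genes, against 22.3% of 27025 genes in the table. The core CCGGAAG of the ETS family of factors, on either strand of the 300-base window (250 before the start, 50 after), was in 41.7% and 37.7% of the sets and 9.93% of all genes. The core GCGCATGCG of NRF1, a factor known for nuclear genes of mitochondrial proteins, was in 5% and 10.1% against 1.95%, the core AAGATGGCG of YY1 in 5% and 11.6% against 1.64%, and TATAAA in 10% and 7.25% against 15.7%. No motif holds another, but matches of different motifs can share bases of a promoter, and a match is not a binding site.

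Examples of the upstream stretch, ending at the base before the start, show an ETS core of Mrpl34 and of Rpl41 and an NRF1 core of Mrpl39 on the gene's own strand, with the core in capitals.
Mrpl34 (chr8:71464866-71464925, plus): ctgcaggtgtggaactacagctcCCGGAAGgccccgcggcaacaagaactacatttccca
Rpl41 (chr10:128549169-128549248, minus): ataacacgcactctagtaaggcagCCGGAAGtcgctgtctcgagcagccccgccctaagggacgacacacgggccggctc
Mrpl39 (chr16:84735245-84735384, minus): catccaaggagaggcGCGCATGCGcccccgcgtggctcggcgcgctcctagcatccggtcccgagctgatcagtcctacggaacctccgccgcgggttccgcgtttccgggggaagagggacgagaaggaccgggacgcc
Genes with these letters were set beside those without. In WT CDAHFD the median TMM log2 fold change was -0.25 for 31 cytosolic genes with a pyrimidine run and -0.27 for 26 without, and -0.39 for 25 mitochondrial genes with an ETS core and -0.49 for 43 without. The 7 mitochondrial genes with an NRF1 core were at -0.56 in WT CDAHFD and -0.59 in KO CDAHFD, against -0.45 and -0.36 for the 61 without. The 3 cytosolic genes with it were at -0.25 and -0.07, against -0.27 and -0.06 for the 54 without. The 8 mitochondrial genes with a YY1 core were at -0.41 and -0.35, against -0.46 and -0.37 for the 60 without. None of these differences was tested.

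Rpl35a, Rps2, Rpl27a, Rpl36 and Rps6 were lower in WT CDAHFD under TMM but not by library size. Rpl35a was at 171 to 205 CPM in WT chow and 110 to 123 in WT CDAHFD (-0.65 ± 0.16, edgeR adjusted p = 0.00387; -0.09 by library size). Rps2, of the mRNA entry site and among the most expressed members per kilobase (389), was at 653 to 799 and 450 to 526 CPM (-0.51 ± 0.13, edgeR adjusted p = 0.00578; 0.04 by library size). Its call in KO CDAHFD (-0.33 ± 0.13, edgeR adjusted p = 0.0484; 0.27 by library size) was lost in 9 of 12 fits without a library. Rpl27a and Rpl36, of the large subunit, were at -0.51 each (edgeR adjusted p = 0.0114 and 0.0101), 0.05 by library size, and were not called without WT CDAHFD replicate 2. Rps6, the substrate of the S6 kinases, was at 295 to 333 CPM in WT chow, and under CDAHFD at 217 to 238 in WT and 218 to 279 in KO mice. Its TMM values were -0.48 ± 0.11 and -0.36 ± 0.11 (edgeR adjusted p = 0.00299 and 0.016), and by library size 0.08 and 0.25, the second of which passed as higher (edgeR adjusted p = 0.0364). The second TMM call was lost without KO CDAHFD replicate 1 or 3 (-0.34 and -0.28).

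The stalk proteins Rplp0, Rplp1 and Rplp2, which bind translation factors at the ribosome's GTPase centre, and Rpsa, a small-subunit protein also known as the laminin receptor precursor, were not called in any comparison with WT chow under TMM. Rplp1 had the highest level per kilobase of the set (787) and stood at 350 to 467 CPM in WT chow. In KO chow it was at 398 and 593, and under CDAHFD at 325 to 379 in WT and 375 to 524 in KO mice. Rplp0 was at 497 to 568, 608 and 708, 499 to 562 and 521 to 635 CPM in the same order. Its TMM log2 fold changes were 0.28 ± 0.12, -0.05 ± 0.11 and 0.10 ± 0.11, and by library size 0.68, 0.50 and 0.70, each of which passed. Rplp0, often used as a reference gene, thus differed between groups by library size and not by TMM.

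Paralogs of narrow expression were at the floor in this tissue. Rpl10l, a testis form of Rpl10, had no count in any of 12 libraries, which allows up to 3 counts in each. Rpl39l, a testis form of Rpl39, had 2.75 counts per library on average and at most 9, and Rpl3l, a muscle form of Rpl3, 3.67 and at most 14, while Rpl10, Rpl39 and Rpl3 had 23143, 3010 and 12172. None of the 3 parents was called against WT chow under TMM, and all 3 were higher by library size in each of the 3 groups. Mrpl53 was the fourth member not tested, with 0.083 counts per library and most of its exon bases inside another gene, Gm42688.

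Rps27l, the p53-responsive paralog of Rps27, was well expressed, at 217 CPM per kilobase in WT chow beside 170 for Rps27. It was at 176, 183, 166 and 184 CPM in WT chow, against 210 and 171 for the KO chow libraries. Under CDAHFD it was at 135, 119 and 133 CPM in WT mice and 123, 151 and 119 in KO mice. In TMM-scaled CPM the CDAHFD libraries all lay below the chow libraries, at -0.46 ± 0.11 and -0.44 ± 0.11 against WT chow (edgeR adjusted p = 0.00499 and 0.00633). Within KO mice the difference was -0.54 ± 0.13 (edgeR adjusted p = 0.0342), lost in 6 of 12 fits without a library, among them those without either KO chow library (-0.37 and -0.69). By library size the values against WT chow were 0.10 and 0.17, the one within KO mice was -0.34, and none of the 3 passed. Rps27 itself was at -0.47 ± 0.15 in WT CDAHFD (edgeR adjusted p = 0.0174; 0.09 by library size), not called without WT chow replicate 2 or WT CDAHFD replicate 2.

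Under CDAHFD the genotypes did not differ in any single member by edgeR. Of 77 genes in each set 0 were called between KO CDAHFD and WT CDAHFD, and DESeq2 also called 0, with an unadjusted p under 0.05 in 4 cytosolic and 1 mitochondrial genes, beside 0.357% of all genes called. All 77 cytosolic values were above 0, with a median of 0.21 and a range of 0.02 to 0.35, as they were by library size (median 0.26). The quartiles of all genes were -0.15 and 0.19 under TMM. The libraries of the genotypes overlapped: the cytosolic median was 7.72, 7.89 and 7.43 log2 CPM in KO CDAHFD and 7.63, 7.36 and 7.52 in WT CDAHFD. With each library left out in turn, the cytosolic median log2 fold change ran from 0.10 to 0.30. The mitochondrial median was 0.09 (0.14 by library size). The cytosolic median differed from that of all genes (0.01) by 0.20, where the SD between libraries of a group in the cytosolic median was 0.17.

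Between the diets within KO mice, 1 cytosolic gene (Rps27l) and 7 mitochondrial genes were lower and 0 higher, beside 6.19% of all genes called in either direction by edgeR (6 and 28 had an unadjusted p under 0.05; DESeq2 called 2 and 11). The cytosolic median was -0.19 under TMM and 0.01 by library size, and the mitochondrial one -0.29 and -0.09. Without KO chow replicate 1 the cytosolic median under TMM was 0.010. The mitochondrial count was 0 and 1 without KO chow replicate 1 and 2, 1, 11 and 2 without KO CDAHFD replicate 1, 2 and 3, and 4 without any 1 of the WT CDAHFD libraries, and the cytosolic count was 0 in 6 of those fits and 2 without KO CDAHFD replicate 2. Beside Mrps31, the calls with the smallest p were Mrps18b, 1 of the 3 mitochondrial S18 proteins (-0.52 ± 0.11, edgeR adjusted p = 0.0157; 69.5% of its exon bases free), and Mrpl39 (-0.53 ± 0.11, edgeR adjusted p = 0.0172). Mrpl39 was at 39.9 and 37.9 CPM in KO chow and 25.7, 29.5 and 25.8 in KO CDAHFD, and Mrps18b at 25.3 and 23.6 and at 17.1, 16.9 and 17.2. Neither passed by library size (-0.31 and -0.32), and both were lost without either KO chow library. In WT CDAHFD against WT chow Mrps18b was called in opposite directions, at -0.27 ± 0.09 under TMM and 0.29 by library size (edgeR adjusted p = 0.0257 and 0.0244).

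The interaction asks whether the diet changed a gene by a different amount in KO than in WT mice. It was called for 2 mitochondrial genes, Mrps5 and Mrpl49, and 0 cytosolic ones (edgeR; 1 had an unadjusted p under 0.05, and DESeq2 called 0), against 23.1% of all genes. Mrps5, a small-subunit protein, was at 51.9, 54.6, 55.2 and 56.8 CPM in WT chow and 35.02, 34.5 and 37.1 in WT CDAHFD, but at 38.9 and 40.9 in KO chow and 37.3, 36.6 and 36.8 in KO CDAHFD. All libraries outside WT chow thus lay between 34.5 and 40.9 CPM. The difference between the diet effects was 0.51 ± 0.13 for Mrps5 and 0.57 ± 0.16 for Mrpl49 (edgeR adjusted p = 0.011 and 0.0238). By library size it was 0.16 and 0.21 and did not pass, and the calls there were 7 cytosolic and 3 mitochondrial genes, all with a negative difference. When every gene with a count was tested it did not pass either (edgeR adjusted p = 0.121 and 0.0905). With the replicate number as a block neither gene passed (edgeR adjusted p = 0.055 and 0.0751). The Mrpl49 call was lost in 4 of 12 fits without a library (WT CDAHFD replicate 2, KO chow replicate 1, KO CDAHFD replicate 1 or 2), while Mrps5 passed in all 12. The count of mitochondrial genes was 4 without KO chow replicate 1, 10 without KO CDAHFD replicate 3 (8 with the clock score as a covariate) and 1 without WT CDAHFD replicate 2 or KO CDAHFD replicate 1 or 2, and the cytosolic count was 1 without WT chow replicate 1, KO chow replicate 2 or KO CDAHFD replicate 3. The set medians turned with the scaling: the cytosolic one was 0.06 under TMM and -0.30 by library size, and the mitochondrial one 0.19 and -0.16, where that of all genes was 0.01 and -0.34. Without KO chow replicate 2 the mitochondrial one under TMM was 0.037.

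The genes around the ribosomal proteins were counted in lists, with TMM counts first, in the order KO chow, WT CDAHFD, KO CDAHFD, each against WT chow. Over all genes 22.0%, 26.1% and 26.9% were called higher and 17.0%, 25.0% and 25.4% lower under TMM, and 40.5%, 52.4% and 56.3% higher and 6.62%, 6.74% and 6.31% lower by library size. Ribosomal proteins with symbols outside the naming rule were taken first. Of the cytosolic ones Rpl7l1 was at -0.66 and -0.55 in the CDAHFD groups under TMM. Of 5 mitochondrial ones 0, 4 and 4 were lower and 0 higher under TMM, and 0, 1 and 0 lower and 2, 1 and 1 higher by library size. Here Aurkaip1 was at -0.71 and -0.47 under CDAHFD, Gadd45gip1 at -1.06 in WT CDAHFD and Ptcd3 at -0.53 in KO CDAHFD.

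The machinery of mitochondrial translation was lower in part under TMM, where 17.0%, 25.0% and 25.4% of all genes were lower (and 40.5%, 52.4% and 56.3% higher by library size). Of 33 translation factors and tRNA synthetases 11, 19 and 20 were lower and 0 higher, while by library size 1, 3 and 2 were lower and 8, 8 and 12 higher. Nars2 and Fars2, which charge tRNAs, were at -1.23 ± 0.20 and -0.54 ± 0.12 in KO chow, and Nars2 at -1.41 ± 0.17 in KO CDAHFD. The initiation factors Mtif2 and Mtif3 were at -0.67 and -0.86 in WT CDAHFD, and the recycling factor Gfm2 at -0.70 in KO CDAHFD. Of 22 assembly genes 4, 15 and 14 were lower and 0 higher under TMM, and 0, 3 and 2 lower and 3, 3 and 5 higher by library size. Nsun4, an RNA methyltransferase of the assembly, was at -0.67, -0.92 and -0.96, and Lrpprc, which stabilises mitochondrial mRNAs, at -0.50, -0.85 and -0.99. Of 14 regulators of nuclear genes for mitochondria 4, 6 and 8 were lower and 0 higher under TMM, and 0 lower and 3, 6 and 4 higher by library size. Tfam, which packages mitochondrial DNA, was at -0.70 in both CDAHFD groups, Tfb2m, a mitochondrial transcription factor, at -0.74 and -0.75, and Gabpb2 and Polg at -0.53 and -0.43 in KO chow.

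The lists of the cytosolic ribosome were mixed, beside 22.0%, 26.1% and 26.9% of all genes higher and 17.0%, 25.0% and 25.4% lower under TMM and 40.5%, 52.4% and 56.3% higher by library size. Of 50 nucleolar ribosome biogenesis genes 17, 1 and 3 were higher and 0, 10 and 8 lower under TMM, and 42, 35 and 36 higher and 0 lower by library size. The shares lower under CDAHFD were thus below those over all genes. The box C/D protein Nop56 and the H/ACA protein Nhp2 were at 0.79 ± 0.12 and 0.78 ± 0.14 in KO chow. Under CDAHFD the H/ACA protein Gar1 was at 0.70 and 0.73 and its partner Nop10 at -0.85 and -0.74, beside Wdr12 at -0.42 in WT and Taf1d at 0.31 and Bop1 at -0.49 in KO mice. Of 39 cytosolic translation factors 6, 1 and 1 were higher and 4, 21 and 16 lower under TMM, and 31, 17 and 29 higher and 0 lower by library size. Eif6, which keeps free large subunits from joining small ones, was at 1.09 ± 0.12, 0.68 ± 0.11 and 0.65 ± 0.11. The initiation factors Eif2s1 (0.40), Eif4a2 (-0.56) and Eif4g1 (-0.44) were named in KO chow, Eif4a2 (-0.75) and Eif3m (-0.49) in WT CDAHFD, and Eif4g1 (-0.69) and the release factor Gspt1 (-0.67) in KO CDAHFD.

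Of 18 regulators of cytosolic ribosomal protein synthesis 1, 2 and 2 were higher and 8, 6 and 9 lower under TMM, and 4, 9 and 7 higher and 3, 0 and 2 lower by library size, beside 22.0%, 26.1% and 26.9% of all genes higher and 17.0%, 25.0% and 25.4% lower under TMM. Myc, a transcription factor of ribosome biogenesis, was higher by 3.76 ± 0.28, 3.83 ± 0.27 and 3.19 ± 0.26 on the log2 scale. The translation repressors Eif4ebp1 and Eif4ebp2 went opposite ways, the first at 0.42 and 0.44 in the CDAHFD groups and the second at -0.999, -0.70 and -0.85. Rps6kb2, an S6 kinase, was at -0.69 and -0.55 in KO chow and WT CDAHFD, and Deptor, an mTOR inhibitor, at -1.41 in KO CDAHFD. Each list gene named here passed under TMM in the groups given (edgeR adjusted p at most 0.0374).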

How the data were processed

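Liver RNA was sequenced in 12 poly-A selected, non-directional libraries. By the submitters' processing notes, the authors checked reads with FastQC 0.11.5, aligned them to GRCm38 with STAR 2.7.3a and deposited raw counts per Ensembl gene; the counting program is not given in the sources used here. The counts were not normalized. Gene names and exons came from GENCODE M21, which named 94.1% of the rows (99.7% of the counts). Rows named as pseudogenes of a member (305) were left out.

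In R 4.3.3, edgeR 4.0.16 (limma 3.58.1) was run over all 12 libraries with a mean per group: filterByExpr (17358 genes), TMM, glmQLFit and glmQLFTest, with Benjamini-Hochberg adjustment over all genes and a call at 0.05. The SE is the size of the log2 fold change over the square root of F. Alternatives were library size as the only scaling, size factors of DESeq2 in edgeR, DESeq2 1.42.0, no filter, a replicate block, a clock gene covariate, pseudogene counts added, each library left out, and members with at least 90% of exon bases free of other genes (added after the data were seen). Figures used Python 3.11.15 and matplotlib 3.10.9. The fit was tested on simulated data.

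The members and lists were chosen with earlier results of these data known. Named members were the stalk proteins and Rpsa, paralogs with their parents, per set and comparison with WT chow the 3 called genes with the largest change in each direction (at least 50 counts on average), the 3 with the highest level per kilobase, calls against the majority, and up to 5 (or 3 per set) of the other comparisons; of each list, the 2 smallest p in each direction. The labels do not say that libraries are separate animals, so p-values measure the spread between libraries, and limits from counts cover counting error only. Exon overlap matters because unstranded reads cannot be assigned where genes overlap, and processed copies of ribosomal protein genes can share reads with their parents. RefSeq promoters were found for 129 of 158 members. One listed gene and the counts of its list are not reported here.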

Additional observations from a re-analysis of the deposited data

Results flagged for a closer look

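Dixon's test was applied to 33 values in WT chow. These were the share of each set, the log2 ratio of their summed counts, and the named members with a library over 1 CPM. In 2 of them a WT chow library was far from the other 3, where chance gives about 1 in 20 groups of 4. Mrpl49 was at 42.2 CPM in WT chow replicate 4, and Rpl27a at 315 CPM in WT chow replicate 2. The diet effect differed between genotypes for Mrpl49 (0.57, edgeR adjusted p = 0.0238) and Mrps5 (0.51, edgeR adjusted p = 0.011), as given in the report.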

How the results depend on the processing

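The scaling turned the direction of most set medians and of some named members. With library size as the only scaling the cytosolic and mitochondrial medians were 0.55 and 0.34 (69 and 32 genes higher, 0 mitochondrial lower) in KO chow, 0.29 and 0.11 (43 and 11 higher, 0 and 4 lower) in WT CDAHFD and 0.55 and 0.23 (72 and 27 higher, 0 and 1 lower) in KO CDAHFD, each against WT chow. Against KO chow, KO CDAHFD had medians of 0.0057 and -0.094 with 0 and 1 calls, and in the interaction the medians were -0.30 and -0.16 with 7 and 3 calls. Of all 17358 genes tested, 676 were called higher and 4268 lower in the interaction by library size. A scaling of whole libraries shifts both sets alike, so the distances between their medians stayed within their leave-one-out ranges. Of 51 calls of named members, 14 held, 22 no longer passed and 15 reversed: Mrpl12 in KO chow (0.061) and KO CDAHFD (0.081), Mrpl4 (0.073), Mrps5 (0.049), Mrps18b (0.15), Rps2 (0.27), Rps27l (0.17) and Rps6 (0.25) in KO CDAHFD, and Mrps18b (0.29), Rpl27a (0.048), Rpl36 (0.048), Rps2 (0.044), Rps27 (0.087), Rps27l (0.10) and Rps6 (0.078) in WT CDAHFD.

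Other settings moved counts. With every gene with a count tested there were 8 cytosolic higher and 3 mitochondrial lower in KO chow, 13 cytosolic lower in WT CDAHFD, 4 cytosolic higher and 1 lower in KO CDAHFD, 4 mitochondrial against KO chow and 0 in the interaction. With the clock score there were 8 cytosolic higher and 15 mitochondrial lower in KO chow, 44 cytosolic lower in WT CDAHFD, 4 higher and 5 lower in KO CDAHFD, and 1 and 8 in the interaction. DESeq2 gave 9 cytosolic higher in KO chow, 1 in WT CDAHFD, and 2 and 11 against KO chow, and its size factors in edgeR 1 cytosolic higher in WT CDAHFD. Members with at least 90% free exon bases, a limit chosen after seeing the data, left 3 cytosolic and 1 mitochondrial higher in KO chow and 0 cytosolic higher in KO CDAHFD. Adding pseudogene counts changed no named call. With every gene with a count tested, 10 of the 51 named calls no longer passed. The cause of these changes was not tested.

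The replicate block gave 2 cytosolic higher and 0 and 4 mitochondrial higher and lower in KO chow, and 12 cytosolic lower in WT CDAHFD. It gave 0 mitochondrial higher in KO CDAHFD and 0 and 2 calls against KO chow. In the interaction it gave 1 mitochondrial gene, neither Mrps5 nor Mrpl49. Of the 51 named calls 14 no longer passed with the block. They included Rpl12 and Mrps6 in KO chow, Mrpl54 in KO chow and KO CDAHFD, and Rps27 in WT CDAHFD. The samples share only a number: of 15 same-number pairs, 3 correlated over 0.1 (-0.242 to 0.266), and 4 of 12 libraries correlated best with their own number.

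With each library left out, the medians ran from -0.0099 to 0.34 (cytosolic) and -0.22 to 0.048 (mitochondrial) in KO chow, -0.35 to 0.010 (cytosolic) against KO chow, and 0.037 to 0.32 (mitochondrial) in the interaction. Counts of cytosolic genes ran from 0 to 14 higher in KO chow, 0 to 1 higher and 6 to 27 lower in WT CDAHFD, 1 to 4 higher and 1 to 6 lower in KO CDAHFD, 0 to 2 against KO chow and 0 to 1 in the interaction. Counts of mitochondrial genes ran from 0 to 3 higher and 2 to 11 lower in KO chow, 0 to 1 higher in WT CDAHFD, 0 to 1 higher in KO CDAHFD, 0 to 11 against KO chow and 1 to 10 in the interaction. Of the 51 named calls 25 held in all 12 fits. With 2 KO chow libraries, what depends on KO chow is the least precise.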
